A study of Mus musculus with 16 samples.

Results

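The set consists of 56 genes named as glutathione, thioredoxin or antioxidant genes, most of them for enzymes that remove reactive oxygen species or that make, use and recycle glutathione. It also takes in proteins that share the thioredoxin name or fold but have other roles, such as the spliceosome proteins Txnl4a and Txnl4b and the thioredoxin inhibitor Txnip. Its members were taken by gene symbol from the 13842 genes of the deposited count table: glutathione S-transferases (Gst), microsomal glutathione S-transferases (Mgst), glutathione peroxidases (Gpx), peroxiredoxins (Prdx), all symbols that begin with Txn, the superoxide dismutases Sod1, Sod2 and Sod3, and Cat, Gclc, Gclm, Gss, Gsr, Nqo1 and Srxn1. The rule reads symbols alone. PolyA RNA was sequenced from the hearts of 16 female mice aged 3 months, with 1 library per mouse and 4 mice in each of 4 groups. DBA/2J mice (DBA in the following) that had permanent coronary artery ligation and were examined 2 weeks later are the DBA ligated group, and untreated DBA/2J mice are the DBA controls. C57Bl6N mice (C57) with the same ligation and interval are the C57 ligated group, and untreated C57Bl6N mice are the C57 controls. The strain field is the same for both C57 groups, but the sample titles write C57Bl-6N for the ligated mice and C57Bl-6NCR for the controls, so a difference in origin and the ligation cannot be told apart. The ligated samples are labelled as remote, that is, taken away from the infarct, and since the controls had no operation, infarct and surgery cannot be told apart. As tissue, septum with left ventricle is stated in the sample labels but septum with right ventricles in the series' design, and the files do not settle which holds.

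Superoxide dismutases turn superoxide into hydrogen peroxide, in the cytosol (Sod1), the mitochondria (Sod2) and the extracellular space (Sod3). Hydrogen peroxide is then broken down by catalase, by glutathione peroxidases, most but not all of which draw electrons from glutathione, and by peroxiredoxins that draw them mostly from thioredoxin. Oxidised glutathione and thioredoxin are reduced again at the expense of NADPH, and heart muscle, which is rich in mitochondria, relies on these routes. Many of the genes are known targets of the transcription factor NRF2, which binds antioxidant response elements.

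Library totals ran from 4922411 to 22010830 counts, and the members held 0.509% to 0.679% of them. The 3 with the fewest counts, called the shallow libraries, were DBA control 3 (7581515 counts), DBA control 4 (4922411) and C57 control 1 (8217335). Within the DBA controls, the deviation of a gene from the group mean followed the GC content of its transcripts. Deviations from a group mean cancel out over its libraries, so opposite signs are built in and do not show which libraries are off. The rank correlation over 13024 genes was 0.45 in DBA control 1 and 0.49 in DBA control 2, but -0.29 in DBA control 3 and -0.46 in DBA control 4. It lay between -0.08 and 0.07 in the DBA ligated libraries and between -0.21 and 0.15 in the C57 ligated libraries. Among the C57 controls it was -0.33 in C57 control 1, 0.014 in C57 control 2, 0.245 in C57 control 3 and 0.225 in C57 control 4. The log2 fold changes after ligation also followed GC content over these genes, with a rank correlation of 0.415 in DBA and 0.32 in C57. Over the 56 members it was 0.172 and 0.12. The 8 cardiomyocyte markers and the markers of other heart cell types that the table holds were all detected. Levels are given in CPM, counts per 1000000 counts of the library total scaled by TMM, edgeR's trimmed mean method. Log2 fold changes are given ± standard error (SE), taken as the absolute log2 fold change over the square root of the test's F statistic. The SE is thus derived from the same test as the p-value. A gene is called at an adjusted p under 0.05 in edgeR's quasi-likelihood test, adjusted by the Benjamini-Hochberg method over all 13504 genes tested, among them all 56 members.

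Per kilobase of gene length, Sod1 was among the most abundant transcripts of the set in every group. It averaged 217 ± 15.5 CPM per kilobase in DBA ligated hearts and 331 ± 51.5 in DBA controls, and 290.2 ± 35.1 in C57 ligated hearts and 418 ± 40.5 in C57 controls (SD, n = 4 each). Prdx5, a peroxiredoxin of mitochondria and peroxisomes, averaged 346 ± 23.7 and 328 ± 84.00 CPM per kilobase in DBA ligated and DBA control hearts, and 383 ± 52.9 and 404 ± 32.2 in C57 ligated and C57 control hearts. Txnip, which binds and inhibits thioredoxin, stood at 206 ± 10.50 and 292 ± 103 CPM per kilobase in DBA ligated and control hearts, and at 197 ± 68.7 and 421 ± 152 in C57 ligated and control hearts. At the other end was Gsto2, an omega-class transferase, with 0 to 16 counts in any library. Within families, a few genes made up most of the summed level. Sod1 made up 54.1% ± 1.93 of the summed superoxide dismutase level per length in DBA ligated hearts and 54.4% ± 3.29 in DBA controls, against 59.3% ± 1.75 in C57 ligated hearts and 63.03% ± 0.513 in C57 controls. Gpx4, which reduces lipid peroxides in membranes, and Gpx3, the secreted form, were the leading glutathione peroxidases, with 49.9% ± 1.51 and 27.1% ± 4.07 of the family in DBA ligated hearts and 47.02% ± 6.15 and 36.9% ± 6.49 in C57 controls. Gstm1 and Gstm2 led the mu class in all 4 groups. For 5 members more than 20% of the 50-base stretches of their transcripts also occur in transcripts of other genes (Gstp1, Gstp2, Gpx4, Gstm1 and Prdx2), and for 8 members exons overlap a gene on the opposite strand (Gstz1, Txndc5, Txndc11, Txnrd2, Gss, Txnip, Gstm5 and Prdx2). Gstt3 and Txnl4a overlap a gene on the same strand. The values of all these genes are uncertain to that extent.

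**Figure D1:**
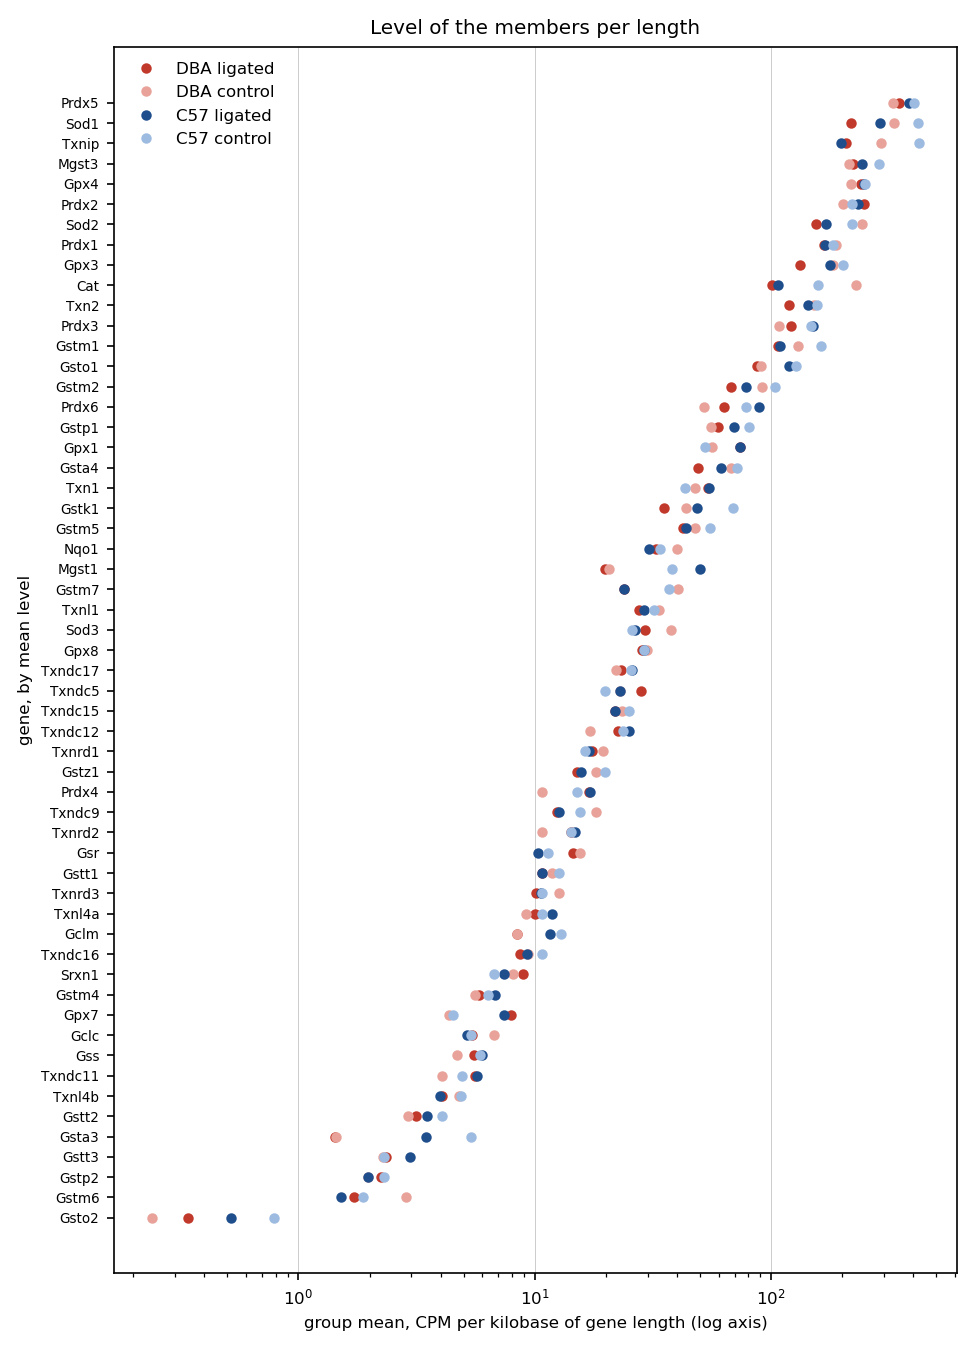
Group means of the 56 members in CPM per kilobase of gene length (log axis), 1 row per gene, with DBA ligated, DBA control, C57 ligated and C57 control as points. Prdx5 and Sod1 head the rows, which are ordered by the mean over groups, and Gsto2 lies at the bottom, and the levels of the members differ far more than the groups do within most rows.

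The core of the antioxidant response element, TGACNNNGC on either strand, was looked for in promoter windows of 300 bases, 250 before and 50 after each transcription start, from RefSeq (mouse build GRCm38.p6, a C57BL/6J sequence). Windows were given for 48 of the 56 members, and 11 of the 48 (22.9%) held the motif in at least 1 window. Among all 27025 genes with promoter windows, 3781 (14%) did. A gene with more windows has more chances to hold the motif, and these shares were not matched for the number of windows. Counted by window, 4071 of all 32851 windows (12.4%) held it, while the members' share by window is not given here. The shares by gene therefore cannot decide whether the members hold the motif more often. The 11 were Gclm, Gsta3, Gstm5, Gstm7, Mgst1, Prdx1, Sod1, Srxn1, Txndc11, Txndc5 and Txnrd1. A match is a string of letters and not a binding site. The windows of the 5 of these members that were called between untreated DBA and C57 hearts are shown here 5′ to 3′ on the strand of the gene, with the motif in capitals. Mgst1 (chr6:138140277-138140576, plus strand) holds it on the other strand, starting at position -56 from the transcription start, Gsta3 (chr1:21240335-21240634, plus strand) at -121, Gclm (chr3:122245307-122245606, plus strand) on the other strand at -134, Sod1 (chr16:90220512-90220811, plus strand) on the other strand at -56, and Txnrd1 (chr10:82858956-82859255, plus strand) on the other strand at -92.
Mgst1: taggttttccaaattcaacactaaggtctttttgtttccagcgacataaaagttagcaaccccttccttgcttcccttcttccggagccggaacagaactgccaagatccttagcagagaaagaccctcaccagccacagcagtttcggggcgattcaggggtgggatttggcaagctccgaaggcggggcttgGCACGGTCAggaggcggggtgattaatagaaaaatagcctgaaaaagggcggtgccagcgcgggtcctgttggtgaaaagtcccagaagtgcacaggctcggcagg
Gsta3: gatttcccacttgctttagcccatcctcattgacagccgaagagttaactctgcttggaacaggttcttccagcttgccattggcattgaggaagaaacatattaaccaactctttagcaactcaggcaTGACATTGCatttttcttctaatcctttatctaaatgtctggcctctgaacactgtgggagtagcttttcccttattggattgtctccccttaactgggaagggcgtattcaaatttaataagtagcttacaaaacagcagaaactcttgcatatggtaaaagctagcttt
Gclm: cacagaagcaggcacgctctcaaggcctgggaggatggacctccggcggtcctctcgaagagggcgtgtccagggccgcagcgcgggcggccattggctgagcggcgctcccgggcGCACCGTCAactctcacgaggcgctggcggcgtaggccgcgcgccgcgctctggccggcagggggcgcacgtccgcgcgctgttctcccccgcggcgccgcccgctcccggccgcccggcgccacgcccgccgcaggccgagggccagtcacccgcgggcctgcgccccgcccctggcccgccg
Sod1: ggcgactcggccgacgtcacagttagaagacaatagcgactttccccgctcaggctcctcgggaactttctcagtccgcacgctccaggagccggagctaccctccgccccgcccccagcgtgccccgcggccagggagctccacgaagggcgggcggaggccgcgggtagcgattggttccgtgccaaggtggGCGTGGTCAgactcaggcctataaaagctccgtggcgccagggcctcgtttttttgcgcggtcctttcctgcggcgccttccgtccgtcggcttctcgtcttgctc
Txnrd1: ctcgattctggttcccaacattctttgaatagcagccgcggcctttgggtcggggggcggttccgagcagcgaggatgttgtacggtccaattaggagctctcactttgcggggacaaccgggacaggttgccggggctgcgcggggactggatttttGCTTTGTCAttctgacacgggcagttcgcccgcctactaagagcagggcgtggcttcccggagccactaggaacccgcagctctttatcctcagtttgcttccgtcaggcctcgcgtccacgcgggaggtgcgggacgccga

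In DBA hearts, Sod1, Sod2 and Cat were lower after ligation, as were 4 glutathione S-transferases, Txn2, Nqo1, Txndc9 and Txnl1, and Gpx7, Prdx4, Txndc12 and Txndc5 were higher. Of the 56 members, 15 were called in DBA ligated against DBA control hearts, 4 higher and 11 lower, which is 26.8% of the set. Among all tested genes 24.9% were called, 11.1% higher and 13.8% lower, so the share of members called lay near the background. The median log2 fold change was -0.065 over the members and 0.03 over all genes. Under scaling by library totals in place of TMM, the median of all genes moved to 0.19 and the called members split into 7 higher and 7 lower.

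Sod1 stood at 149, 149.7, 131 and 133 CPM in DBA ligated hearts, against 200.4, 173, 244 and 239 CPM in DBA controls. All 4 ligated libraries lay below all 4 controls, and the log2 fold change was -0.60 ± 0.12 (edgeR adjusted p = 0.00424). Sod2, the mitochondrial enzyme, had 583, 584, 604 and 589 CPM in DBA ligated hearts, against 797, 699, 971 and 1254 CPM in DBA controls, again without overlap. The ligated libraries were close together, while DBA control 4 was the highest of all, and the log2 fold change was -0.66 ± 0.14 (adjusted p = 0.00543). Cat, the peroxisomal enzyme that splits hydrogen peroxide, had 239.9, 306, 243 and 245 CPM in DBA ligated hearts, against 367, 322, 659.8 and 976 CPM in DBA controls. The groups did not overlap, and DBA controls 3 and 4 lay far above DBA controls 1 and 2. The fitted log2 fold change of Cat was -1.17 ± 0.25 (adjusted p = 0.00636). Without the 3 shallow libraries it was -0.42 (adjusted p = 0.0328), and that of Sod2 was -0.34 (adjusted p = 0.0311). Sod1, Sod2 and Cat were the members called under every alternative tried, and the fold change of Sod1 ranged from -0.68 to -0.41 over them. Sod3, the extracellular enzyme, did not pass the test, with 57.6, 68.5, 63.1 and 50.4 CPM in DBA ligated hearts and 64.1, 51.4, 93.7 and 99.1 CPM in DBA controls, whose ranges overlapped (log2 fold change -0.35 ± 0.22, adjusted p = 0.258). Summed per length, the 3 dismutases came to 401 ± 16 CPM per kilobase in DBA ligated hearts and 612 ± 122 in DBA controls (SD, n = 4 each).

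Markers of several cell types also differed. Of the 8 cardiomyocyte markers, 7 were called lower in DBA ligated hearts and none higher, and their summed level was 72600 to 75710 CPM in DBA ligated hearts, against 95550 to 124200 CPM in DBA controls. Fibroblast markers summed to 4761 to 5887 CPM in DBA ligated hearts, against 3059 to 4127 CPM in DBA controls, with 4 of 8 called higher. Macrophage markers summed to 582 to 686 CPM in DBA ligated hearts, against 443 to 527 CPM in DBA controls, with 6 of 9 called higher. Endothelial markers summed to 1400 to 1568 CPM in DBA ligated hearts, against 1034 to 1272 CPM in DBA controls, with 3 of 6 called higher. Smooth muscle and pericyte markers summed to 1987 to 2182 CPM in DBA ligated hearts, against 2088 to 2620 CPM in DBA controls, with 1 of 6 called lower. Atrial muscle markers summed to 12.1 to 27.1 CPM in DBA ligated hearts, against 40.3 to 97.4 CPM in DBA controls, with 3 of 4 called lower. In bulk tissue fewer cells of a type and less RNA per cell cannot be told apart, and the part of these shifts in the members' values was not tested.

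Among the glutathione peroxidases, Gpx7, which acts in the endoplasmic reticulum, was the 1 member of 5 that rose in DBA hearts. It had 8.7, 8.49, 10.3 and 11.1 CPM in DBA ligated hearts, against 5.1, 7.19, 4.21 and 4.55 CPM in DBA controls. Every ligated library lay above every control, with a log2 fold change of 0.82 ± 0.18 (adjusted p = 0.00632). Gpx1, the cytosolic form, had 77.2, 72.1, 87.7 and 73.1 CPM in DBA ligated hearts and 73.6, 69.1, 51.9 and 40.1 CPM in DBA controls. The ranges overlapped, DBA controls 3 and 4 were the lowest, and the difference of 0.38 ± 0.15 did not pass the test (adjusted p = 0.0747). Gpx3 (-0.47 ± 0.20, adjusted p = 0.0945) and Gpx4 (0.14 ± 0.16, adjusted p = 0.529) did not pass it either.

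Of the 6 peroxiredoxins and sulfiredoxin (Srxn1), which restores overoxidised peroxiredoxins, only Prdx4 was called in DBA hearts. Prdx4 couples peroxide removal to disulfide formation in the endoplasmic reticulum and had 14.7, 15.6, 18.95 and 16.98 CPM in DBA ligated hearts, against 12.2, 13.7, 8.42 and 7.59 CPM in DBA controls. The groups did not overlap, with DBA controls 3 and 4 lowest, and the log2 fold change was 0.61 ± 0.19 (adjusted p = 0.0266). Txndc12 and Txndc5, thioredoxin-fold proteins of the same compartment, completed the 4 members that rose. Txndc12 had 28.7, 27.1, 31.5 and 27.6 CPM in DBA ligated hearts, against 26.5, 24.2, 18.7 and 17.6 CPM in DBA controls (0.38 ± 0.11, adjusted p = 0.0243). Txndc5 had 86.04, 82.2, 95.1 and 92.2 CPM in DBA ligated hearts, against 76.1, 81.2, 69.01 and 63.3 CPM in DBA controls (0.29 ± 0.10, adjusted p = 0.0397). In both genes the lowest ligated library lay just above the highest control. Without the 3 shallow libraries, the log2 fold changes were 0.35 for Prdx4 (adjusted p = 0.0896), 0.18 for Txndc12 (adjusted p = 0.22) and 0.18 for Txndc5 (adjusted p = 0.259), so that these 3 calls were lost. The endoplasmic reticulum peroxidase Gpx8 and Txndc11 of that compartment were not called in DBA hearts.

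**Figure D2:**
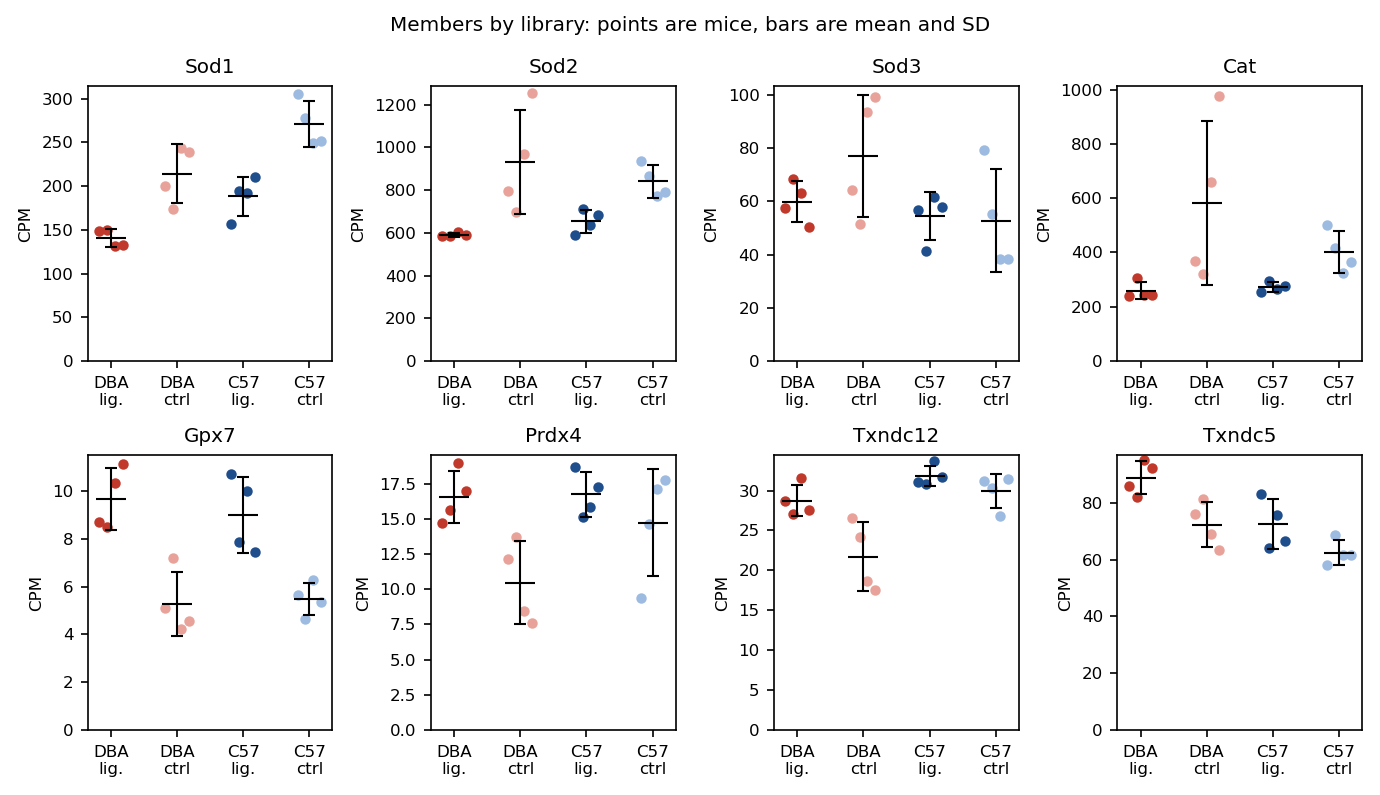
CPM per library of 8 members, with 1 point per mouse and bars for mean and SD (n = 4), in the order DBA ligated, DBA control, C57 ligated, C57 control. The ligated libraries lie below the controls for Sod1, Sod2 and Cat in both strains, although Sod2 and Cat were not called in C57, Gpx7 lies higher in both, and 2 of the DBA controls stand far above the other 2 for Cat.

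Of the 6 thioredoxins, their reductases and Txnip, 1 was called in DBA hearts. This was Txn2, the mitochondrial thioredoxin, with 154, 153, 157 and 148 CPM in DBA ligated hearts, against 201, 170.0, 209 and 202 CPM in DBA controls. The groups did not overlap, and the log2 fold change was -0.36 ± 0.085 (adjusted p = 0.00977). It was -0.19 under scaling by library totals (adjusted p = 0.0639), and the call was also lost without the 3 shallow libraries. Cytosolic Txn1 (0.19 ± 0.089, adjusted p = 0.127), its reductase Txnrd1 (-0.16 ± 0.081, adjusted p = 0.141) and Txnip (-0.50 ± 0.27, adjusted p = 0.182) were not called. Of the enzymes of glutathione synthesis and recycling, none passed the test, including Gclc, the catalytic subunit of the rate-limiting ligase (-0.30 ± 0.12, adjusted p = 0.0802), Gss, which completes glutathione (0.20 ± 0.12, adjusted p = 0.226), and Gclm and Gsr. The quinone reductase Nqo1 had 50.1, 46.2, 52.4 and 54.3 CPM in DBA ligated hearts, against 63.3, 67.8, 58.3 and 58.1 CPM in DBA controls (-0.29 ± 0.10, adjusted p = 0.0382), without overlap.

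Of 17 glutathione S-transferases, 4 fell in DBA hearts and none rose (23.5% called, against 24.9% of all tested genes). Gstm2, a mu-class enzyme, had 70.7, 77.5, 67.2 and 68.4 CPM in DBA ligated hearts, against 96.2, 80.1, 106 and 101 CPM in DBA controls, without overlap (-0.43 ± 0.11, adjusted p = 0.0138). Gstz1, which also serves in tyrosine breakdown, had 32.9, 34.4, 28.9 and 31.2 CPM in DBA ligated hearts, against 38.5, 39.02, 36.9 and 38.4 CPM in DBA controls, without overlap (-0.26 ± 0.081, adjusted p = 0.0266). The other 2 were Gsta4, which conjugates the lipid peroxidation product hydroxynonenal (-0.45 ± 0.12, adjusted p = 0.0147), and Gstm7 (-0.73 ± 0.21, adjusted p = 0.0198), and in both of them 1 or more ligated libraries reached into the range of the controls. Among the thioredoxin-fold proteins, Txndc9, a partner of the cytosolic chaperonin, had 58.6, 58.7, 56.2 and 54.5 CPM in DBA ligated hearts, against 75.2, 62.6, 92.1 and 104 CPM in DBA controls (-0.54 ± 0.14, adjusted p = 0.0126). Txnl1, which associates with the proteasome, had 70.6, 69.5, 73.2 and 68.5 CPM in DBA ligated hearts, against 79.2, 75.3, 88.9 and 99.3 CPM in DBA controls (-0.28 ± 0.081, adjusted p = 0.0225). Both were lower in each ligated library than in each control, but with a correction for GC content the log2 fold change of Txnl1 was -0.031 (adjusted p = 0.761) and that of Txndc9 -0.29 (adjusted p = 0.0272). The 41 members that were not called had log2 fold changes from -0.64 to 0.41, among them 0.019 for Gclm, -0.091 for Gsr, 0.16 for Prdx3, 0.26 for Prdx6, 0.36 for Txnrd2 and 0.13 for Srxn1.

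Several of the smaller DBA calls were lost when the shallow libraries, or single libraries of either DBA group, were left out. Low depth, deviations that follow GC content and the smaller number of controls cannot be told apart in the fits without shallow libraries. Without the 3 shallow libraries, 5 members were called, 1 higher and 4 lower, against 6.93% of all genes, and all 5 were among the 15. With the GC correction in addition, Gpx7 was lost as well, so that none of the 4 higher calls remained. Library totals in place of TMM ended the calls of Txn2, Txnl1, Gstz1 and Nqo1 (adjusted p between 0.0639 and 0.339), and the GC correction alone those of Txnl1, Gstz1, Nqo1 and Txndc5 (adjusted p between 0.0818 and 0.761). A fit of the DBA groups alone ended those of Gsta4, Txnl1, Txndc12, Gstz1, Prdx4, Nqo1 and Txndc5 (adjusted p between 0.0526 and 0.086). Leaving out DBA control 3 alone also left 5, against 9.68% of all genes. The 10 calls lost were Txndc9, Gstm2, Gsta4, Gstm7, Txnl1, Txndc12, Gstz1, Prdx4, Nqo1 and Txndc5, with adjusted p between 0.0507 and 0.113. Without DBA control 4, 5 calls were lost (Gstm7, Txnl1, Txndc12, Prdx4 and Txndc5, adjusted p between 0.059 and 0.0987). Without DBA control 2, 22 members were called, while the share of all genes called was 37.5%, against 24.9% in the main fit. Without DBA ligated S41 or S42, 9 were called in each case, against 13.4% and 13.2% of all genes. Gstm7, Gstz1, Prdx4, Nqo1 and Txndc5 were lost in both, Txndc12 without S41 and Txnl1 without S42. Without DBA ligated 1, the calls of Txnl1, Gstz1, Nqo1 and Txndc5 were lost, and without S40 those of Txnl1 and Nqo1. Nqo1 was also lost without DBA control 1 (adjusted p = 0.0669) and without DBA control 2 (adjusted p = 0.083).

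**Figure D3:**
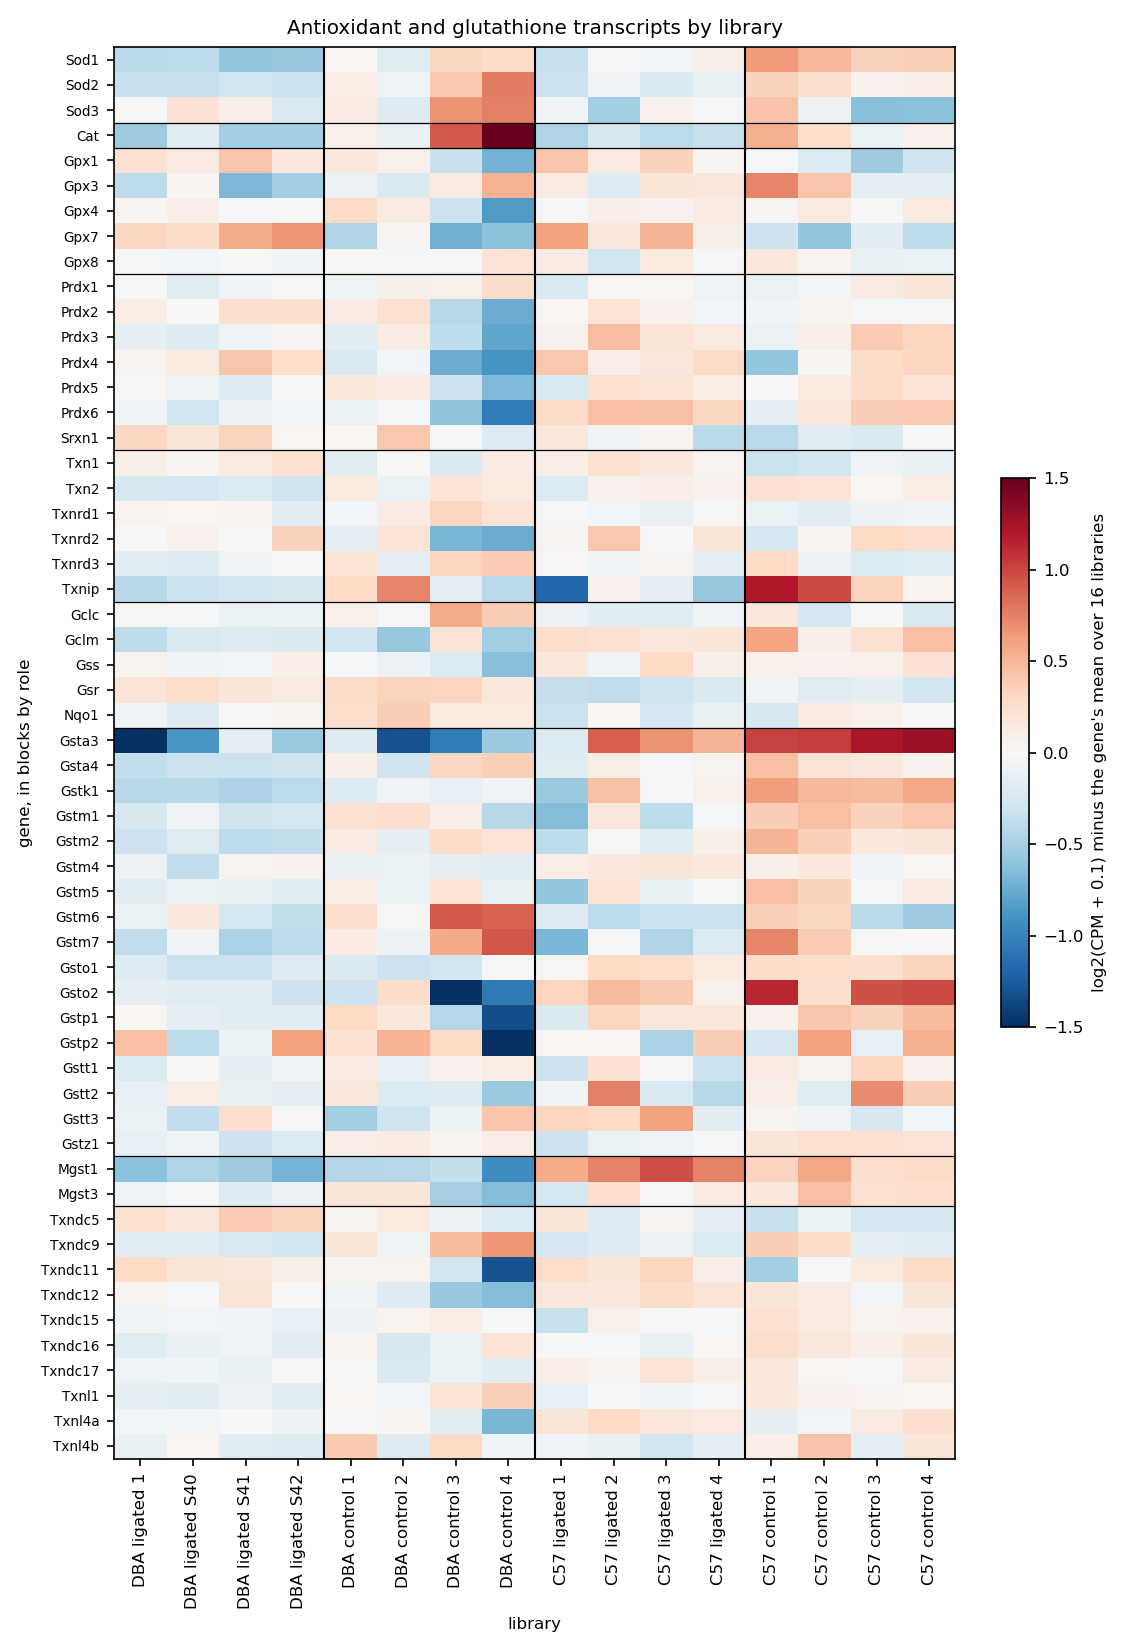
Log2(CPM + 0.1) of each of the 56 members in each of the 16 libraries, minus the gene's mean over all libraries (colour, red higher and blue lower), with genes in blocks by role. The DBA controls 3 and 4 differ from DBA controls 1 and 2 in many rows, such as Cat and Prdx6, while Mgst1 and Gsr differ between the strains in every library.

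In C57 hearts, Sod1, several glutathione S-transferases and Txnip were lower after ligation, and Gpx7, Gpx1, Txn1 and Mgst1 were higher. Of the 56 members, 10 were called in C57 ligated against C57 control hearts, 4 higher and 6 lower, which is 17.9%. Among all tested genes 13.3% were called, 7.24% higher and 6.06% lower. The median log2 fold change was -0.14 over the members and 0.02 over all genes, and 0.13 over all genes under scaling by library totals.

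Sod1 had 156, 194, 192 and 210.2 CPM in C57 ligated hearts, against 306, 278, 249.6 and 252 CPM in C57 controls. The groups did not overlap, the log2 fold change was -0.53 ± 0.11 (adjusted p = 0.00773), and Sod1 was the 1 member called under every alternative in C57 hearts. Sod2 had 589, 711, 635 and 683 CPM in C57 ligated hearts and 936, 868, 772 and 789.7 CPM in C57 controls. Its ligated libraries also lay below all controls, but the difference of -0.36 ± 0.13 did not pass the test (adjusted p = 0.0813). Cat had 254, 295, 264 and 277 CPM in C57 ligated hearts and 502, 417, 325 and 365 CPM in C57 controls, with C57 control 1 highest. It too was not called (-0.56 ± 0.25, adjusted p = 0.136). Sod3 overlapped between the groups, at 41.3 to 61.7 CPM in C57 ligated hearts and 38.2 to 79.3 CPM in C57 controls (0.056 ± 0.23, adjusted p = 0.889). The summed level of the dismutases per length was 488 ± 46.3 CPM per kilobase in C57 ligated hearts and 664 ± 69.7 in C57 controls (SD, n = 4 each).

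Gpx7 and Gpx1 rose in C57 hearts. Gpx7 had 10.7, 7.88, 10.00 and 7.45 CPM in C57 ligated hearts, against 5.63, 4.64, 6.27 and 5.34 CPM in C57 controls. The groups did not overlap (0.72 ± 0.18, adjusted p = 0.015). Gpx1 had 87.3, 71.97, 83.7 and 67.5 CPM in C57 ligated hearts, against 64.7, 56.8, 45.4 and 53.3 CPM in C57 controls. Its lowest ligated library, C57 ligated 4, lay just above the highest control (0.50 ± 0.15, adjusted p = 0.041), and with a correction for GC content the difference was 0.33 (adjusted p = 0.077). Txn1, the cytosolic thioredoxin, had 55.9, 60.8, 57.99 and 53.98 CPM in C57 ligated hearts, against 41.4, 42.4, 49.2 and 48.05 CPM in C57 controls, without overlap (0.33 ± 0.089, adjusted p = 0.0223). Its inhibitor Txnip had 316, 753, 656 and 484 CPM in C57 ligated hearts, against 1657, 1410.1, 906 and 745 CPM in C57 controls. C57 ligated 1 was lowest and C57 control 1 highest. Its groups overlapped at C57 ligated 2 and C57 control 4, and the log2 fold change was -1.09 ± 0.28 (adjusted p = 0.017). No peroxiredoxin, no enzyme of glutathione synthesis or recycling and no thioredoxin-fold protein was called in C57 hearts.

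The 4 of 17 glutathione S-transferases called in C57 hearts all fell (23.5%, against 13.3% of all tested genes). Gstz1 had 28.9, 33.5, 34.03 and 35.5 CPM in C57 ligated hearts, against 40.8, 42.2, 41.99 and 41.4 CPM in C57 controls (-0.34 ± 0.081, adjusted p = 0.0128). Gstm1 had 102, 181, 123 and 158 CPM in C57 ligated hearts, against 208, 219.8, 204 and 212 CPM in C57 controls (-0.58 ± 0.15, adjusted p = 0.021). Gstm2 had 67.5, 89.1, 77.9 and 93.1 CPM in C57 ligated hearts, against 125, 113, 97.9 and 99.3 CPM in C57 controls (-0.41 ± 0.11, adjusted p = 0.0254). Gstk1, a kappa-class enzyme of mitochondria and peroxisomes, had 29.8, 59.8, 43.8 and 46.5 CPM in C57 ligated hearts, against 68.01, 61.9, 61.3 and 65.7 CPM in C57 controls (-0.52 ± 0.14, adjusted p = 0.0215). None of the 4 overlapped between groups, and C57 ligated 1 was the lowest library for each. Mgst1, which protects membranes of the endoplasmic reticulum and mitochondria, moved the other way, with 40.9, 46.6, 54.4 and 46.7 CPM in C57 ligated hearts, against 35.3, 41.8, 33.1 and 34.1 CPM in C57 controls. C57 ligated 1 lay below the highest control, and the log2 fold change was 0.39 ± 0.12 (adjusted p = 0.0354). Gstm7 stood next to the threshold without passing it (-0.63 ± 0.21, adjusted p = 0.0525). The 46 members that were not called had log2 fold changes from -0.66 to 0.38. In the glutathione branch these were -0.055 for Gclc, -0.14 for Gclm, 0.019 for Gss, -0.14 for Gsr, -0.18 for Gpx3, -0.02 for Gpx4 and -0.16 for Nqo1, and in the thioredoxin branch -0.14 for Txn2, 0.059 for Txnrd1, 0.05 for Txnrd2, 0.032 for Prdx3, 0.17 for Prdx6 and 0.15 for Srxn1.

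Muscle markers were lower in C57 ligated hearts too, with 6 of 8 called and a summed level of 85310 to 104800 CPM, against 120500 to 133600 CPM in C57 controls. Fibroblast markers summed to 2602 to 4972 CPM in C57 ligated hearts, against 1727 to 2089 CPM in C57 controls, and macrophage markers to 452 to 616 CPM, against 357 to 376 CPM in C57 controls. Endothelial markers summed to 1493 to 1578 CPM in C57 ligated hearts, against 1227 to 1474 CPM in C57 controls, with 1 of 6 called higher. Smooth muscle and pericyte markers were lower, at 1403 to 1675 CPM against 1758 to 1944 CPM in C57 controls, with 1 of 6 called. The part of all these shifts in the members' values was not tested. The C57 counts depended on single libraries, as did the share of all genes called, which was 13.3% in the main fit. Without C57 ligated 1, 2 members were called, against 4.55% of all genes. Gstz1, Gpx7, Txnip, Gstm1, Gstk1, Txn1, Gstm2 and Gpx1 were lost, with adjusted p between 0.0512 and 0.138. Without C57 ligated 3, 3 were called, against 5.55% of all genes. Gpx7, Gstm1, Gstk1, Txn1, Gstm2, Mgst1 and Gpx1 were lost (adjusted p between 0.0517 and 0.117). Without C57 control 1, 5 were called, against 6.84% of all genes. Txnip, Gstk1, Txn1, Gstm2 and Mgst1 were lost (adjusted p between 0.0588 and 0.0872). Without C57 control 2, 4 were called, against 6.5% of all genes. Gpx7, Txnip, Gstm1, Txn1, Gstm2 and Gpx1 were lost (adjusted p between 0.0535 and 0.0801). Mgst1 was also lost without any 1 of C57 ligated 2, C57 ligated 4, C57 control 3 or C57 control 4, and Gpx1 without C57 control 3, C57 control 4, DBA ligated 1, S40 or S42. Txnip was also lost without the 3 shallow libraries (adjusted p = 0.0558) and in a fit of the C57 groups alone (adjusted p = 0.0602), and Gstz1 under scaling by library totals (adjusted p = 0.063).

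Sod1, Gstm2 and Gstz1 were called lower and Gpx7 higher after ligation in both strains, although under scaling by library totals Gstz1 was called in neither (-0.10 in DBA, adjusted p = 0.339; adjusted p = 0.063 in C57). These 4 were 26.7% of the members called in DBA hearts and 40% of those called in C57 hearts, while the genes called in both strains over the whole table, 1094 in number, were 32.6% and 60.9% of the calls. The fitted fold changes had the same sign in 44 of 56 members (78.6%) and in 77.9% of all tested genes. Across the 56 members, which are not independent, Pearson's r between the log2 fold changes of the strains was 0.68 and Spearman's rho 0.69, against 0.64 and 0.70 across all tested genes. The contrasts share no libraries but use the same scaling and fit.

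**Figure D4:**
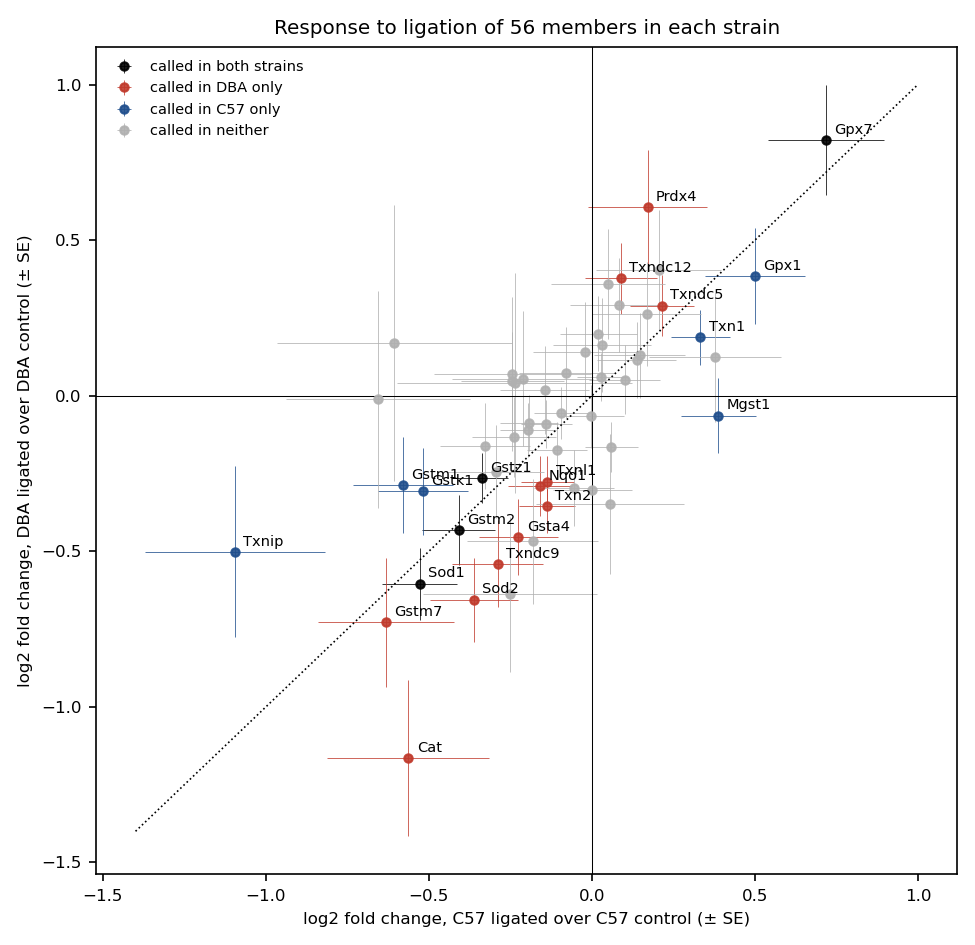
Log2 fold change after ligation in DBA hearts (vertical axis) against that in C57 hearts (horizontal axis) for the 56 members, with SE bars, coloured by where the member was called. The dotted line marks equal changes. Sod1, Gstm2 and Gstz1 lie in the lower left and Gpx7 in the upper right, and Cat is lowest on the DBA axis.

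The difference between the strains' responses was tested directly as an interaction, DBA response minus C57 response. No member was called by edgeR, nor was any of the 13504 genes (0%), and an unadjusted p under 0.05 was reached by 1 member and 782 genes. Without DBA control 2 it was reached by 11 members, and without DBA control 1, C57 ligated 2 or C57 control 1 by 4 in each case, again with 0 called. How many of all genes reached it in these fits was not counted, so these numbers say nothing about the members in particular. DESeq2 called 0 members and 16 genes. The 1 member was Mgst1, whose fitted response was -0.064 ± 0.12 in DBA hearts (adjusted p = 0.724) and 0.39 ± 0.12 in C57 hearts. The difference between these responses was -0.45 ± 0.17 in edgeR's quasi-likelihood test (unadjusted p = 0.0152, adjusted p = 0.828). Mgst1 stood at 18.2, 20.4, 19.3 and 17.2 CPM in DBA ligated hearts, against 20.5, 20.6, 21.7 and 14.5 CPM in DBA controls, and these ranges overlapped. Next by p came Txnrd1 (-0.22 ± 0.12), Txndc12 (0.29 ± 0.16), Txn2 (-0.22 ± 0.12), Txnrd3 (-0.30 ± 0.17) and Cat (-0.60 ± 0.35), all with an adjusted p of 0.849 or 0.857, but the Cat difference turned to 0.0212 without the 3 shallow libraries (adjusted p = 0.994). Over all 56 members the fitted differences ran from -0.60 to 0.78. Members called in 1 strain alone, such as Cat, Prdx4, Gpx1 or Gstk1, are therefore not shown to respond differently.

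Between the strains, untreated DBA hearts had less Mgst1, Gsta3, Gsto1 and Gstk1 mRNA, all of enzymes that can conjugate with glutathione, and more of the reductase Gsr, while the share of members called lay near the background. Of the 56 members, 12 were called in DBA against C57 controls, 2 higher and 10 lower in DBA, which is 21.4%, against 22.5% of all tested genes, 12.6% higher and 9.92% lower. Of the 17 glutathione S-transferases 4 were called (23.5%). In ligated hearts 10 were called, 2 higher and 8 lower in DBA (17.9%), against 19.4% of all tested genes, 10.6% higher and 8.81% lower. The median log2 difference was -0.14 over the members in controls and -0.063 in ligated hearts, and 0.02 and 0.007 over all genes. Under scaling by library totals the split was 4 higher and 8 lower in controls, and 2 higher and 4 lower in ligated hearts, where the median of all genes moved to 0.11. The 8 members called in both comparisons were Mgst1, Gsta3, Gsr, Gsto1, Gstk1, Gclm, Prdx6 and Sod1.

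Mgst1 showed the difference with the smallest p of the set. In ligated hearts it had 18.2, 20.4, 19.3 and 17.2 CPM in DBA, against 40.9, 46.6, 54.4 and 46.7 CPM in C57, and in controls 20.5, 20.6, 21.7 and 14.5 CPM in DBA, against 35.3, 41.8, 33.1 and 34.1 CPM in C57. All 8 DBA libraries lay below all 8 C57 libraries. The log2 difference was -1.33 ± 0.12 in ligated hearts (adjusted p = 2.15e-07) and -0.88 ± 0.12 in controls (adjusted p = 4.93e-05). Gsta3, an alpha-class transferase known in mice for detoxifying aflatoxin, is weakly expressed here. It had 1.08, 2.08, 3.48 and 2.6 CPM in DBA ligated hearts, against 3.35, 7.29, 6.24 and 5.54 CPM in C57 ligated hearts, and 3.38, 1.51, 1.82 and 2.6 CPM in DBA controls, against 7.91, 8.04, 9.15 and 9.64 CPM in C57 controls. The controls did not overlap (-1.91 ± 0.33, adjusted p = 0.000396), whereas C57 ligated 1 lay below DBA ligated S41 in ligated hearts (-1.27 ± 0.30, adjusted p = 0.0054). These values rest on 12 to 72 counts in any DBA library and 59 to 124 in any C57 library. Gsto1, an omega-class enzyme that reduces dehydroascorbate, had 107, 96.7, 96.8 and 106 CPM in DBA ligated hearts, against 123, 149.5, 146 and 135 CPM in C57 ligated hearts, without overlap (-0.45 ± 0.083, adjusted p = 0.000791). In controls it had 105, 97.6, 99.4 and 121 CPM in DBA, against 147, 146, 144 and 153 CPM in C57 (-0.49 ± 0.084, adjusted p = 0.000432). Mgst1, Gsta3 and Gsto1 were called under every alternative in both comparisons.

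Gstk1 had 38.03, 42.3, 40.3 and 42.3 CPM in DBA controls, against 68.01, 61.9, 61.3 and 65.7 CPM in C57 controls, a clear separation (-0.66 ± 0.14, adjusted p = 0.00247). In ligated hearts it had 32.96, 32.97, 31.9 and 33.6 CPM in DBA, against 29.8, 59.8, 43.8 and 46.5 CPM in C57, where C57 ligated 1 lay below all DBA libraries (-0.45 ± 0.14, adjusted p = 0.0283). Without C57 ligated 2 the difference in ligated hearts was -0.28 (adjusted p = 0.126). Sod1, whose values are given above, was lower in DBA in both states, with -0.42 ± 0.11 in ligated hearts (adjusted p = 0.0148) and -0.34 ± 0.12 in controls (adjusted p = 0.0406), without overlap in either. Prdx6, a peroxiredoxin that uses glutathione, had 164, 139, 160.1 and 165 CPM in DBA ligated hearts, against 206, 232, 231 and 211 CPM in C57 ligated hearts (-0.49 ± 0.17, adjusted p = 0.0481). Its controls overlapped, at 159, 167, 112 and 82.2 CPM in DBA and 154, 189, 219 and 221 CPM in C57, with DBA controls 3 and 4 lowest (-0.58 ± 0.17, adjusted p = 0.019), and without the 3 shallow libraries the difference in controls was -0.36 (adjusted p = 0.0107). Sod2 and Cat were not called between strains in either state. In ligated hearts their log2 differences, with those of other main enzymes that were not called, were -0.15 for Sod2, 0.14 for Sod3, -0.076 for Cat, -0.0024 for Gpx1, -0.43 for Gpx3, -0.037 for Gpx4, -0.31 for Prdx3, -0.011 for Txn1, -0.053 for Txnrd2, 0.067 for Txnip, -0.12 for Gss and 0.27 for Srxn1. In controls they were 0.14 for Sod2, 0.54 for Sod3, 0.53 for Cat, 0.11 for Gpx1, -0.15 for Gpx3, -0.20 for Gpx4, 0.14 for Txn1, -0.042 for Txn2, -0.36 for Txnrd2, -0.53 for Txnip, -0.30 for Gss and 0.28 for Srxn1. Of the marker lists, 7 of 8 fibroblast markers were called higher in DBA controls and 6 of 8 in DBA ligated hearts, and 3 of 8 cardiomyocyte markers were called lower in DBA in each state. In each state 2 of 3 neutrophil markers were called higher in DBA, and both erythroid markers that the table holds were lower. Of the 6 smooth muscle and pericyte markers, 2 were called higher and 1 lower in DBA controls, and 2 higher and 0 lower in DBA ligated hearts. Of the 6 endothelial markers, 1 was called lower in DBA controls and 0 in DBA ligated hearts. Of the 9 macrophage markers, 3 were called higher and 1 lower in DBA in controls, and 2 higher and 1 lower in ligated hearts. The part of these differences in the members' values was not tested.

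The enzymes of glutathione supply pointed in both directions. Gclm, the modifier subunit of the ligase that starts glutathione synthesis, had 15.98, 17.8, 18.3 and 17.96 CPM in DBA ligated hearts, against 25.00, 24.5, 23.4 and 23.7 CPM in C57 ligated hearts, without overlap (-0.46 ± 0.14, adjusted p = 0.0212). In controls it had 17.04, 14.03, 23.8 and 14.5 CPM in DBA, against 31.4, 22.4, 24.6 and 28.6 CPM in C57, where DBA control 3 reached into the C57 range (-0.63 ± 0.14, adjusted p = 0.00402). Gclc, the catalytic subunit, was not called in controls (0.32 ± 0.13, adjusted p = 0.0803) or in ligated hearts (0.074 ± 0.12, adjusted p = 0.739). Gsr, which reduces oxidised glutathione, was higher in DBA. It had 39.3, 40.97, 38.6 and 37.00 CPM in DBA ligated hearts, against 26.8, 26.3, 27.6 and 29.3 CPM in C57 ligated hearts (0.50 ± 0.076, adjusted p = 0.000104), and 41.6, 43.1, 42.5 and 38.4 CPM in DBA controls, against 32.7, 29.9, 30.9 and 27.8 CPM in C57 controls (0.45 ± 0.078, adjusted p = 0.000417). All 8 DBA libraries lay above all 8 C57 libraries. Txnrd1, the cytosolic thioredoxin reductase, had 68.4, 76.8, 87.9 and 80.9 CPM in DBA controls, against 65.6, 62.7, 66.1 and 67.8 CPM in C57 controls, and was called there (0.26 ± 0.082, adjusted p = 0.0328), but not in ligated hearts (0.033 ± 0.081, adjusted p = 0.837). Nqo1 was not called in controls (0.24 ± 0.10, adjusted p = 0.0871) or in ligated hearts (0.11 ± 0.10, adjusted p = 0.486).

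**Figure D5:**
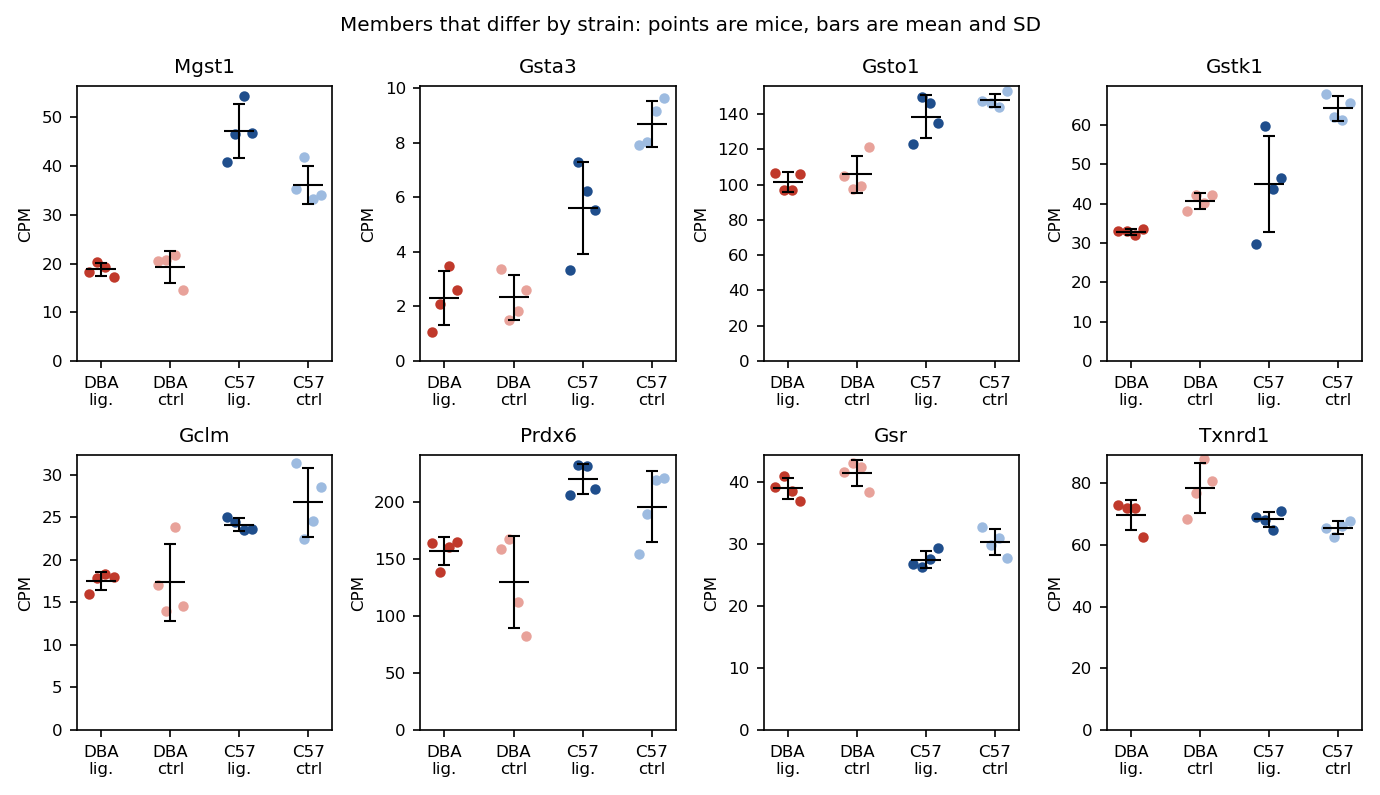
CPM per library of 8 members, with 1 point per mouse and bars for mean and SD (n = 4), in the order DBA ligated, DBA control, C57 ligated, C57 control. Mgst1, Gsto1 and Gsta3 lie lower in DBA, Gsr lies higher in DBA in all 8 libraries, and C57 ligated 1 stands below the other C57 libraries for Gstk1.

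The other calls between control strains were Txndc12 (-0.43 ± 0.12, adjusted p = 0.0113), the mitochondrial Prdx3 (-0.45 ± 0.15, adjusted p = 0.0432) and Gsto2 (-1.37 ± 0.42, adjusted p = 0.0275), with overlap in Prdx3 and Gsto2. Gsto2 had 0 to 12 counts per library in DBA controls and 6 to 16 in C57 controls. Txndc12, Gsto2, Txnrd1 and Prdx3 were lost without the 3 shallow libraries, with adjusted p between 0.107 and 0.258 and log2 differences of -0.22, -0.86, 0.15 and -0.28. In ligated hearts, Txn2 was lower in DBA (-0.26 ± 0.085, adjusted p = 0.0382) and Txndc5 was higher in DBA (0.29 ± 0.10, adjusted p = 0.0411), with overlap in Txndc5. Library totals in place of TMM ended the calls of Prdx6 and Prdx3 between controls (adjusted p between 0.052 and 0.104), and those of Gclm, Gstk1, Txn2 and Prdx6 between ligated hearts (adjusted p between 0.0612 and 0.162). A fit of the controls alone ended the calls of Gclm, Txndc12, Prdx6, Txnrd1, Sod1 and Prdx3 (adjusted p between 0.0506 and 0.152), and a fit of the ligated hearts alone that of Gstk1 (adjusted p = 0.0821). With a correction for GC content, Prdx3 was lost in controls (adjusted p = 0.0541) and Txn2 in ligated hearts (adjusted p = 0.0703). Single libraries also decided calls between controls. Without C57 control 4, 7 members were called, against 16.4% of all genes, and Prdx6, Gsto2, Txnrd1, Sod1 and Prdx3 were lost. Without C57 control 3, 8 were called, against 16.9% of all genes, and Prdx6, Gsto2, Txnrd1 and Prdx3 were lost. Without DBA control 2, 19 were called, against 29.7% of all genes. Sod1 was also lost without DBA control 1, DBA control 2, C57 control 1 or C57 control 2, Txnrd1 without DBA controls 3 or 4 or C57 controls 1 or 2, Gsto2 without DBA control 1 or C57 control 1, Prdx6 without DBA control 3, and Prdx3 without any 1 of 9 further libraries. In ligated hearts, 5 members were called without DBA ligated 1, against 15.1% of all genes, with Gclm, Gstk1, Txn2, Txndc5 and Prdx6 lost. Without C57 ligated 4, 5 were called, against 16.4% of all genes, with Sod1, Gstk1, Txn2, Txndc5 and Prdx6 lost (adjusted p between 0.0536 and 0.12). Without S41, S42 or C57 ligated 2, 6 were called in each case, against 15.1%, 15.8% and 15.5% of all genes. Gstk1, Txn2, Txndc5 and Prdx6 were lost in all 3. Gstk1, Txn2 and Prdx6 were lost without S40, and Txn2, Txndc5 and Prdx6 without C57 ligated 3. Prdx6 was also lost without C57 ligated 1 (adjusted p = 0.0634), and without DBA control 3 or C57 controls 2, 3 or 4, which lie outside the contrast, and Txndc5 without C57 controls 3 or 4.

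Genes around the antioxidant enzymes were followed in lists chosen by function. Their counts are to be read against the 24.9% of all tested genes called after ligation in DBA, 13.3% in C57 and 22.5% between controls. Of 10 regulators of the NRF2 pathway, Cul3, part of the ligase that marks NRF2 for breakdown, was the 1 called after ligation, lower in DBA (-0.63 ± 0.15, adjusted p = 0.00856) and in C57 (-0.48 ± 0.15, adjusted p = 0.0395). Of 24 other NRF2 targets tested, 2 were higher and 3 lower after ligation in DBA, and 4 higher and 3 lower in C57. Their medians were 0.18 in DBA and 0.02 in C57, against 0.03 and 0.02 over all genes. Me1, the cytosolic malic enzyme that makes NADPH, averaged 94.01 ± 2.15 CPM in DBA ligated hearts and 139 ± 11.6 in DBA controls (-0.56 ± 0.074, adjusted p = 0.00183), and 175 ± 5.14 CPM in C57 ligated hearts and 202 ± 14.1 in C57 controls (SD, n = 4 each). Between controls, 3 regulators were lower in DBA: Nfe2l1 (-0.36 ± 0.086), Keap1, the sensor that holds NRF2 back (-0.45 ± 0.13), and Sqstm1 (-0.48 ± 0.14), while Nfe2l2, the gene of NRF2 itself, was not called in any contrast. Slc7a11, the cystine importer that feeds glutathione synthesis, was called higher in DBA in both states. It had 15 to 65 counts per library in DBA ligated hearts, against 0 to 3 in C57 ligated hearts, and 5 to 32 in DBA controls, against 0 to 1 in C57 controls, so no fold is given.

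Among 14 genes of NADPH supply, 2 were higher and 2 lower after ligation in DBA, near the 24.9% of all genes, and 2 higher and 3 lower in C57, where 13.3% of all genes were called. Between controls, 3 were higher and 3 lower in DBA, against 22.5% of all genes. Nnt, the mitochondrial transhydrogenase that supplies NADPH to the mitochondrial thioredoxin and glutathione systems, averaged 602 ± 26.5 CPM in DBA ligated hearts, against 1087 ± 252 in C57 ligated hearts (-0.85 ± 0.13, adjusted p = 8.38e-05). In controls it averaged 742 ± 62.2 CPM in DBA, against 1545 ± 84.00 in C57 (-1.06 ± 0.13, adjusted p = 9.55e-06). Idh2, a mitochondrial source of NADPH, was lower in DBA controls (-0.70 ± 0.12, adjusted p = 0.000343), and the cytosolic Idh1 was higher (0.75 ± 0.086, adjusted p = 5.66e-06). Of 19 genes of glutathione breakdown, transport and glutaredoxins, 5 were higher and 4 lower in DBA controls. Glo1, which with glutathione detoxifies methylglyoxal, averaged 152 ± 15.3 CPM in DBA controls, against 83.97 ± 1.93 in C57 controls (0.86 ± 0.078, adjusted p = 3.8e-07), while Hagh, the next enzyme of that route, was lower in DBA (-0.91 ± 0.15, adjusted p = 0.000213).

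Of 16 tested genes for sources of reactive oxygen, 5 were higher and 1 lower after ligation in DBA, and 2 higher and 2 lower in C57. Nox4, an NADPH oxidase that releases hydrogen peroxide, averaged 6.22 ± 1.73 CPM in C57 ligated hearts and 2.13 ± 0.144 in C57 controls (1.56 ± 0.25, adjusted p = 0.00129). As edgeR called no gene in the interaction, the Nox4 response is not shown to differ between the strains. Maob, the monoamine oxidase of the outer mitochondrial membrane, fell in DBA (-0.80 ± 0.15, adjusted p = 0.00427) and in C57 (-0.67 ± 0.15, adjusted p = 0.0104). Between controls, 7 were higher and 2 lower in DBA, with a median of 0.32 against 0.02 over all genes. Cybb, the catalytic subunit of the phagocyte oxidase, averaged 43.4 ± 8.16 CPM in DBA controls, against 18.9 ± 4.07 in C57 controls (1.20 ± 0.17, adjusted p = 7.34e-05), and Duox1 averaged 4.13 ± 1.16 CPM in DBA controls, against 1.00 ± 0.137 in C57 controls (2.07 ± 0.26, adjusted p = 1.67e-05). Macrophage markers summed to 443 to 527 CPM in DBA controls, against 357 to 376 CPM in C57 controls. Of the 9, 3 were called higher and 1 lower in DBA controls, and their part in the Cybb difference was not tested.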

How the data were processed

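RNA was extracted with the RNeasy Plus Mini kit and made into libraries with the KAPA mRNA Hyperprep kit, as the labels' protocols state. The submitters' processing notes name mm10, STAR 2.5.2b for alignment, featureCounts of Subread 1.5.1 for assignment to genes, and edgeR. Which strand setting and which annotation were used is not given in the sources used here. DBA/2J reads were thus counted against a genome of C57BL/6J origin, whose effect on DBA counts was not tested. The deposited values are raw whole-number counts for each gene in each library, per the file headers, and no gene totals fewer than 45 counts. The authors' comparison columns and 16 further per-sample columns were not used. For 3 DBA ligated libraries the column's mouse number is not the one in the label, so they carry the names S40, S41 and S42 and no replicate number.

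Low counts were filtered with edgeR 4.0.16 (limma 3.58.1, R 4.3.3), which left 13504 genes, and libraries were scaled by TMM. All 16 libraries entered 1 model with a mean per group, and 5 contrasts were tested with two-sided robust quasi-likelihood tests and Benjamini-Hochberg adjustment. The members, gene lists and contrasts were chosen with earlier results of these data known. Named were a panel of main enzymes, the 12 members with the smallest p per contrast (6 in the interaction and between ligated strains), other called members, and up to 4 genes with the smallest p per other list. Any further gene was picked with its values in view. GC content came from GENCODE vM21 transcripts and promoter windows from RefSeq. Alternatives were other size factors, DESeq2 1.42.0, no filter, fewer libraries or groups, the replicate number as a block, and a GC offset chosen after seeing the data. The fit was also run on simulated counts with planted changes. These held no GC difference between libraries, so that run does not cover this feature of the data. No libraries had identical counts, and the titles number the samples as biological replicates.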

Additional observations from a re-analysis of the deposited data

Results flagged for a closer look

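Within each group of 4 libraries, the member's highest or lowest library was set against its neighbour, and it was noted where that gap, as a share of the group's range, passed Dixon's critical value for 4 values at the 95% level. Of 224 such comparisons 7 did, and chance gives about 1 in 20. Cat had 306 CPM in DBA ligated S40, against 240 to 245 CPM in the other DBA ligated libraries, which left the highest ligated library below the lowest DBA control. Txnrd1 had 62.6 CPM in DBA ligated S42, against 72.0 to 72.8 CPM in the others. Gstt2 had 4.88 CPM in DBA ligated S40, against 4.11 to 4.16 CPM in the others. Gstp1 had 48.8 CPM in DBA ligated 1, against 42.5 to 43.4 CPM in the others. Gpx3 had 223 CPM in C57 ligated 2, against 281 to 290.4 CPM in the other C57 ligated libraries. Txn2 had 158 CPM in C57 ligated 1, against 189.5 to 195 CPM in the others. Gss had 12.5 CPM in C57 control 4, against 11.2 to 11.3 CPM in the other C57 controls.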

How the results depend on the processing

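After ligation in DBA 15 members were called. Without the 3 shallow libraries 5 were called, all among the 15, in a fit of the 2 groups alone 9, of which 8 were among the 15, and with a GC offset and without those libraries 7, of which 5 were among the 15. The shares of all genes called in these fits were 6.93%, 12.4% and 7.44%. Leaving out each library in turn gave 5 to 22 in DBA, 2 to 13 (of 10) in C57, 7 to 19 (of 12) between control strains, 5 to 12 (of 10) between ligated strains and 0 throughout in the interaction. Over the same fits, the share of all genes called ran from 9.68% to 37.5% in DBA and from 4.55% to 21% in C57. It ran from 16.4% to 29.7% between control strains and from 15.1% to 24.4% between ligated strains. Between control strains, a fit of those 2 groups alone called 5, against 12.7% of all genes. Between ligated strains, library totals in place of TMM called 6, against 21.7% of all genes. The Cat interaction was -0.60 and turned to 0.0212 without the shallow libraries and to 0.0097 with a GC offset and without them. The replicate number as a block, in fits of the 2 groups, gave 13 calls in C57 and 4 between control strains, against 13.5% and 6.4% of all genes. Same-numbered libraries correlated between -0.07 and 0.01 in C57 and between -0.26 and -0.04 in controls, and none correlated best with its own number. The check thus showed no pairing by number. It cannot exclude one, with 4 libraries a group whose deviations partly follow GC content. No block was possible for the other contrasts because 3 DBA ligated columns carry no usable number. Of the other 101 counts of called members under alternatives, all lay within 1.5 times the main count. Among them are the 23 of the interaction, which were 0 against 0 and carry no information on stability. Of values of single members under alternatives, 1113 kept direction and side of the threshold, 205 lost the call, 16 gained it and 2 reversed. Depth was least in DBA controls 3 and 4, and the smallest values rest on 0 to 16 counts (Gsto2).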

Other observations

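Other redox genes differed by strain and state outside the set. Of 17 methionine sulfoxide reductases, sestrins and helpers of antioxidant enzymes, 2 were higher and 3 lower after ligation in DBA, against 24.9% of all tested genes called, and 1 higher and 2 lower in C57, against 13.3%. Tmx1, a thioredoxin-related membrane protein of the endoplasmic reticulum, averaged 63.5 ± 7.11 CPM in DBA ligated hearts, against 164 ± 25.7 in C57 ligated hearts (-1.37 ± 0.11, edgeR adjusted p = 6.88e-08), and 71.7 ± 4.4 CPM in DBA controls, against 120.4 ± 10.4 in C57 controls (-0.75 ± 0.11, edgeR adjusted p = 8.42e-05; SD, n = 4 each). Msrb1, which repairs oxidised methionine and is a selenoprotein, was higher after ligation in DBA (0.74 ± 0.18, edgeR adjusted p = 0.0112). With no gene called by edgeR in the interaction, the Msrb1 response is not shown to differ from that in C57. Of 18 tested genes of selenoprotein synthesis and other selenoproteins, 2 were higher and 2 lower after ligation in DBA, and 0 higher and 1 lower in C57, against the same shares of all genes.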
